A study of Mus musculus with 502 samples.

Results

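The centromeric bands of the human autosomes were taken as 17 windows on hg38, 1 for each autosome other than the 5 acrocentric ones, with a total length of 73.6 Mb or 2.56% of the autosomal length. A silencer belonged to the windows if its midpoint lay in one of them. This chose 3865 of the 397136 silencers that 3 lists hold: 1420 of 125249 in 293T, 1365 of 134159 in K562 and 1080 of 137728 in LNCap. The borders of the windows use no measured value. No human genome or annotation was used here, so the description of the windows as centromeric rests on those borders.

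The lists come from Ss-STARR-seq, a plasmid assay in which genomic fragments are cloned beside a reporter and their silencing activity is read from reporter RNA (output) and plasmid DNA (input). The lines were 293T, derived from embryonic kidney, K562, a leukaemia line with erythroid features, and LNCap, an androgen-sensitive prostate cancer line, all grown in serum-containing medium with no genotype, treatment or time given. The labels name 502 libraries, made of output RNA from each line and of input DNA from 293T (1 library) and LNCap (40 libraries), with none labelled as K562 input. All are labelled as mouse although the lines and the build are human. Each line is represented by 1 deposited list with no replicate list, so no test over replicates could be made, and the read depth behind a silencer is unknown. All intervals below are 95% intervals for counting error alone, and they treat silencers as independent although neighbours can share fragments.

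A human centromere is built on long arrays of alpha satellite, a tandem repeat on which nucleosomes carrying the histone variant CENP-A assemble and recruit the kinetochore. The arrays are flanked by pericentromeric heterochromatin rich in H3K9me3, by other satellites and by segmental duplications. Short reads from such repeats often match many places, and hg38 represents the arrays by modelled sequence. A plasmid assay tests a fragment outside its chromosome, so the packaging of the native centromere is not what it measures.

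Silencers were sparse in the windows in all 3 lines. In 293T the windows held 19.3 silencers per Mb (18.3 to 20.3), against 42.1 (41.8 to 42.3) on the rest of the autosomes, a ratio of 0.459 (0.435 to 0.483). In K562 the windows held 18.5 per Mb (17.6 to 19.6), against 45.4 (45.2 to 45.7), a ratio of 0.408 (0.387 to 0.431). The gap was widest in LNCap, with 14.7 per Mb in the windows (13.8 to 15.6) against 46.6 (46.4 to 46.9), a ratio of 0.315 (0.296 to 0.334). As a part of each whole list this was 1.13% of the 293T silencers (1.08 to 1.19), 1.02% of K562 (0.965 to 1.07) and 0.784% of LNCap (0.739 to 0.832).

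In sum, the immediate surroundings of the windows did not share the deficit. Within 5 Mb on each side, the density was 44.7 silencers per Mb in 293T, 47.5 in K562 and 46.1 in LNCap, so that the windows stood at 0.432 (0.408 to 0.457), 0.391 (0.369 to 0.414) and 0.318 (0.299 to 0.339) times their own flanks. Every window lay below the remainder of its own chromosome in 293T and in LNCap. In K562, 16 of 17 did, the exception being chromosome 10 with 53.9 per Mb in the window and 49.4 on its remainder. Against their own flanks, 17 of 17 windows were lower in 293T and in LNCap, and 16 were in K562. The K562 exception here was chromosome 9, with 17.3 per Mb in the window and 15.0 in flanks that were themselves thin.

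**Figure D1:**
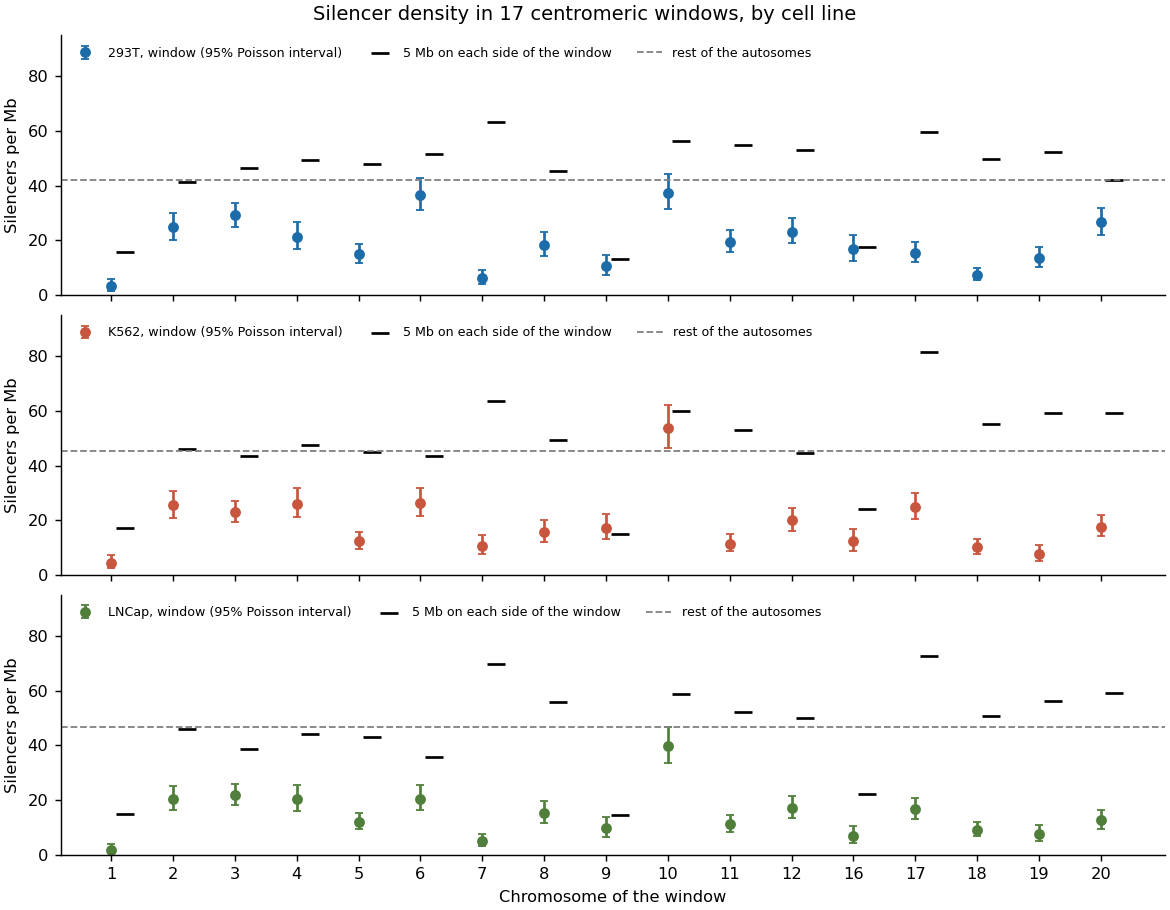
Silencers per Mb (y axis) in each of the 17 windows (x axis, by chromosome) for 293T, K562 and LNCap, with 95% Poisson intervals; black dashes are the 5 Mb on each side and the dashed line is the rest of the autosomes. The windows of chromosome 10 stand highest in each line (37.5, 53.9 and 39.7 per Mb) and that of chromosome 1 lowest (3.24, 4.41 and 1.76).

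The windows differed widely among themselves. Per window the density ran from 3.24 to 37.5 silencers per Mb in 293T (median 18.2), from 4.41 to 53.9 in K562 (median 17.3) and from 1.76 to 39.7 in LNCap (median 12.6). Over the 3 lists together the sparsest windows were those of chromosome 1 (121.7 to 125.1 Mb), with 11 silencers of 293T, 15 of K562 and 6 of LNCap, and of chromosome 7 (58.1 to 62.1 Mb), with 25, 43 and 20. Chromosomes 1, 9 and 16 carry large blocks of constitutive heterochromatin next to the centromere. Their flanks were the emptiest of the 17 in each list, and the cause of this was not tested. Flank densities count the full 5 Mb on each side, whether or not reads could be placed there. Within 5 Mb of the window the 293T density was 15.7 per Mb on chromosome 1, 13.1 on chromosome 9 and 17.5 on chromosome 16. The window of chromosome 9 (42.2 to 45.5 Mb) held 35, 57 and 32 silencers of 293T, K562 and LNCap, and that of chromosome 16 (35.3 to 38.4 Mb) held 52, 38 and 21.

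The fullest windows were those of chromosome 10 (38 to 41.6 Mb), with 472 silencers of the 3 lists, chromosome 3 (87.8 to 94 Mb), with 458, and chromosome 6 (58.5 to 62.6 Mb), with 342. In 293T, K562 and LNCap, in that order, chromosome 10 held 37.5, 53.9 and 39.7 silencers per Mb, chromosome 3 held 29.2, 22.9 and 21.8, and chromosome 6 held 36.6, 26.3 and 20.5. The window of chromosome 10 was thus fullest in K562, and those of chromosomes 3 and 6 in 293T.

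Windows of middling density, with silencers per Mb in the same order of lines, were those of chromosome 2 (91.8 to 96 Mb) with 24.8, 25.5 and 20.2, chromosome 12 (33.2 to 37.8 Mb) with 23.3, 20 and 17.2, chromosome 20 (25.7 to 30.4 Mb) with 26.6, 17.7 and 12.6, and chromosome 17 (22.7 to 27.4 Mb) with 15.5, 24.9 and 16.6. Counts of silencers, again in that order, were 77, 94 and 73 on chromosome 4 (48.2 to 51.8 Mb), 79, 65 and 64 on chromosome 5 (46.1 to 51.4 Mb) and 94, 55 and 54 on chromosome 11 (51 to 55.8 Mb). They were 73, 63 and 61 on chromosome 8 (43.2 to 47.2 Mb), 46, 62 and 56 on chromosome 18 (15.4 to 21.5 Mb) and 53, 30 and 30 on chromosome 19 (24.2 to 28.1 Mb). The gap between window and remainder was wide on chromosome 19, where LNCap had 7.69 per Mb in the window against 99.9 on the rest of the chromosome.

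Long stretches of the windows held no listed silencer. Stretches of at least 200 kb that held no silencer of any list numbered 56 in the windows and covered 37.3 Mb, or 50.7% of their length, against 6.38% of the length of the rest of the autosomes. Of the 736 bins of 100 kb in the windows, 391 (53.1%) held a silencer, against 93.8% elsewhere. Occupied bins were also less full, with 9.88 silencers of the 3 lists per occupied bin in the windows and 14.3 elsewhere. When density was counted over occupied bins alone, the ratio of windows to the rest was 0.810 (0.769 to 0.854) in 293T, 0.722 (0.684 to 0.761) in K562 and 0.556 (0.523 to 0.590) in LNCap. Bins are called occupied by the silencers themselves, so these ratios must lie nearer to 1 than those over the full length, and they are given as a description.

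The 5 longest empty stretches each exceeded 2 Mb. They ran from 51000000, the window's own border, to 53808550 on chromosome 11 (2.81 Mb), from 24403807 to 27183450 on chromosome 19 (2.78 Mb), from 58350001 to 60722250 on chromosome 7 (2.37 Mb), from 47270301 to 49602300 on chromosome 5 (2.33 Mb) and from 122499600 to 124797851 on chromosome 1 (2.30 Mb). Whether reads could be placed in these stretches was not tested. An empty stretch therefore shows that no silencer was listed, not that the sequence lacks the activity.

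Silencers often lay on a single side of the window. On chromosome 4, 243 of the 244 silencers of the 3 lists lay below the window's midpoint and 1 above it. Chromosome 10 had 455 below and 17 above. The reverse held on chromosome 11, with 0 below and 203 above, and on chromosome 17, with 14 below and 254 above. Milder splits were seen on chromosome 6, with 62 below and 280 above, and on chromosome 2, with 63 below and 233 above.

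**Figure D2:**
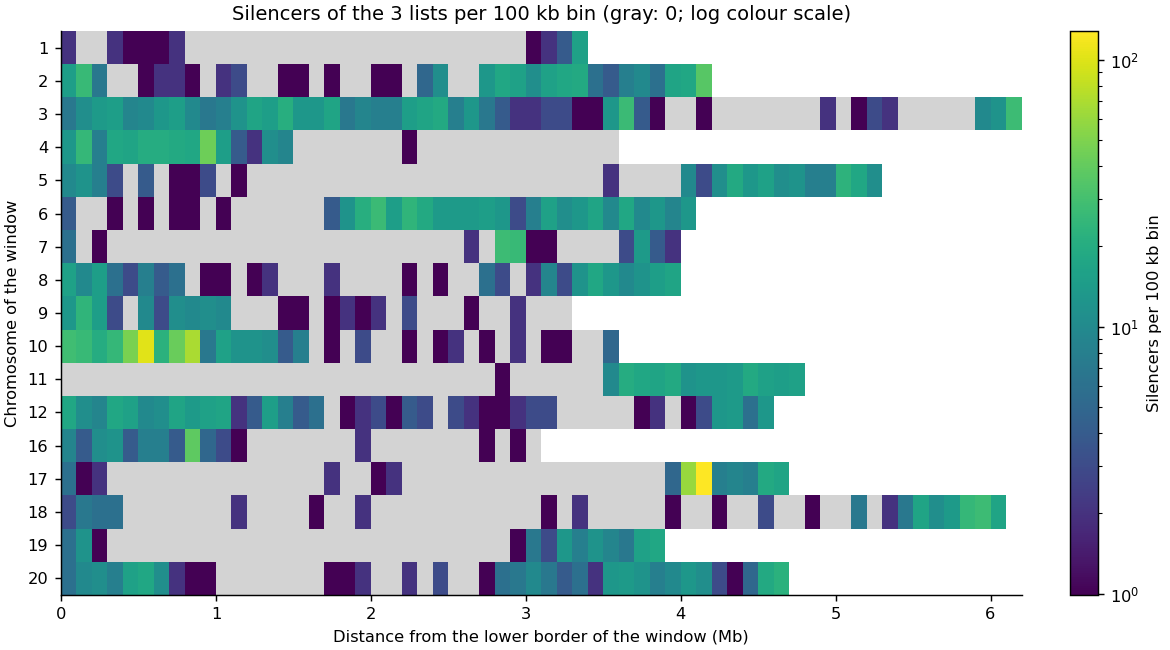
Silencers of the 3 lists together in each 100 kb bin of the 17 windows, by distance from the window's lower border in Mb (x axis) and chromosome (y axis), on a log colour scale with gray for bins without a silencer and white beyond the window. Long gray runs fill 50.7% of the windows when stretches of at least 200 kb are counted, and the brightest bins lie on chromosomes 17 and 10.

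The density fell inward from the borders. In the outermost 0.5 Mb inside the windows there were 33.2 silencers per Mb in 293T, 28.5 in K562 and 25.9 in LNCap. Between 0.5 and 1 Mb inside the values were 25.5, 29.4 and 22, and between 1.5 and 2 Mb inside they were 8.49, 8.06 and 4.10. Most of the full bins of chromosomes 10 and 17 lie in the step from 0.5 to 1 Mb, where K562 did not fall further. Those of chromosome 10 at 38 to 38.1 Mb and 38.4 to 38.5 Mb lie in the outermost 0.5 Mb. Without these chromosomes the step from 0.5 to 1 Mb held 23, 19.4 and 15.5, after 31.8, 27.3 and 25.3 in the outermost 0.5 Mb. The 0.5 Mb just outside the windows held 45.4, 44.5 and 42.3. Across the border itself the difference was smaller than the fall further in: the 100 kb strips just inside held 44.4 silencers per Mb in 293T, 38.8 in K562 and 32.6 in LNCap, against 44.1, 44.4 and 42.4 in the 100 kb strips just outside. With the windows shortened by 0.5 Mb at both ends, the ratio to the rest of the autosomes was 0.359 in 293T, 0.343 in K562 and 0.242 in LNCap.

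**Figure D3:**
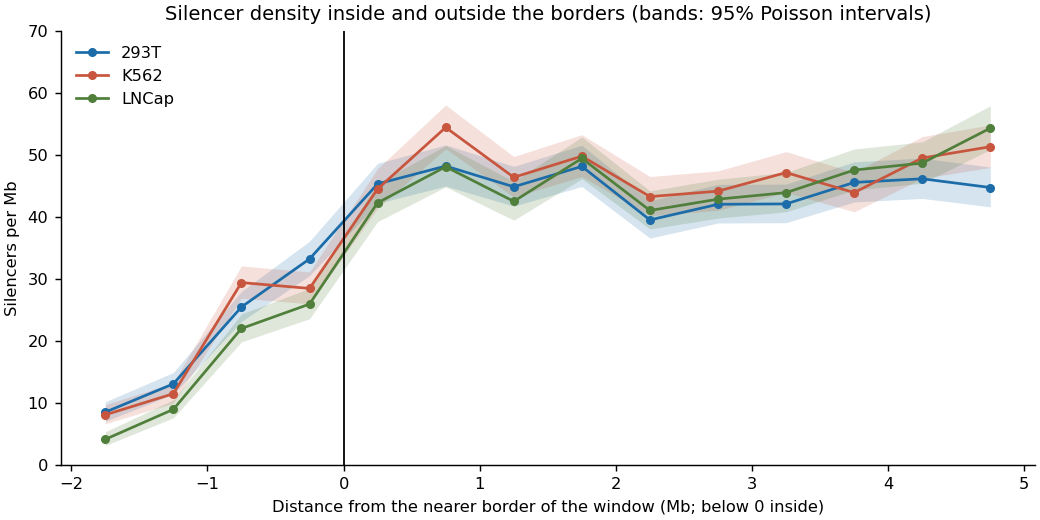
Silencers per Mb (y axis) in steps of 0.5 Mb from the nearer border of the windows (x axis, Mb, below 0 inside), for 293T, K562 and LNCap, with 95% Poisson intervals as bands; steps reached by fewer than 10 windows are not drawn. Outside the border the lines stay between 39.5 and 54.5 per Mb, and 1.5 to 2 Mb inside they lie at 8.49, 8.06 and 4.10.

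The deficit differed between the lists. After scaling the lists to equal size, 293T supplied 38.6% of the silencers in the windows, K562 34.7% and LNCap 26.7%, against 34.1%, 33.9% and 32.02% in the flanks and 33.2%, 33.4% and 33.4% on the rest of the autosomes. The share of its list that 293T had in the windows was 1.45 times that of LNCap (1.34 to 1.56) and was higher in 16 of 17 windows. K562 stood at 1.30 times LNCap (1.20 to 1.40) and was higher in 17 of 17. The ratio of 293T to K562 was 1.11 (1.03 to 1.20), with 293T higher in 10 of 17 windows, so those lines differed by window more than in sum. With 1 list per line, a difference between lines and one between their libraries cannot be told apart.

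Which line led differed from window to window. Relative to the mean of the other lists, after scaling, 293T was highest on chromosome 19 (1.92 times), chromosome 16 (1.91), chromosome 20 (1.91), chromosome 11 (1.87) and chromosome 6 (1.69), and lowest on chromosome 17 (0.810). K562 was highest on chromosome 7 (1.86), chromosome 1 (1.70), chromosome 9 (1.66), chromosome 17 (1.52) and chromosome 10 (1.37), and lowest on chromosome 19 (0.698). LNCap was below the mean of the others in every window, from 0.436 on chromosome 1 to 0.980 on chromosome 18. The values for chromosome 1 rest on 32 silencers in all.

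Overlap between lists, counted from 1 shared base, was low in the windows, as it was elsewhere. Of 1420 silencers of 293T in the windows, 44 (3.10%, 2.32 to 4.13) overlapped a K562 silencer, against 3.30% on the rest of the autosomes and 3.30% of the whole 293T list. Overlaps of 293T silencers with LNCap numbered 40 (2.82%, 2.08 to 3.81) in the windows, 3.59% elsewhere and 3.58% over the list. Of the K562 silencers in the windows, 43 of 1365 (3.15%, 2.35 to 4.22) overlapped 293T, against 3.01% elsewhere and 3.03% over the list. For LNCap in 293T the count was 40 of 1080 (3.70%, 2.73 to 5.00), against 3.21% elsewhere and 3.23% over the list. These 4 shares are near their backgrounds.

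K562 and LNCap shared more with each other, again as elsewhere. Of K562 silencers, 190 of 1365 in the windows overlapped LNCap (13.9%, 12.2 to 15.9), against 15.7% on the rest of the autosomes and 15.7% of the whole list. Of LNCap silencers, 202 of 1080 overlapped K562 (18.7%, 16.5 to 21.1), against 15.3% elsewhere and 15.4% over the list, a ratio of 1.22 (1.08 to 1.38). That excess was not general: the overlap was higher in the window than on the rest of the chromosome in 6 of 17 windows. It stood at 37.8% (54 silencers) on chromosome 10 and 37.2% (29 silencers) on chromosome 17. Without chromosome 10 alone the ratio was 1.03 (0.889 to 1.20). Without both windows, which were picked after their values had been seen, the share was 13.9% (11.7 to 16.3), an interval that includes the 15.3% of the rest of the autosomes. The share of K562 silencers that overlapped LNCap was then 10.7% (8.99 to 12.7), or 0.683 times that of the rest (0.574 to 0.813). For 293T silencers the shares were 1.82% with K562 (0.550 times, 0.363 to 0.833) and 1.98% with LNCap (0.552 times, 0.371 to 0.821). Both windows left out had the highest shares of these 3 overlaps, so their removal had to lower the values, and no deficit is read from them. Over all 17 windows the ratios were 0.887 (0.777 to 1.01) for K562 in LNCap, 0.939 (0.700 to 1.26) for 293T in K562 and 0.785 (0.578 to 1.07) for 293T in LNCap. Each of these intervals includes equality. The overlaps with 293T were 2.09% of K562 and 2.79% of LNCap silencers.

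Lists were also merged into regions wherever silencers of any line overlapped or touched, which gave 3532 regions in the windows. Of these, 1342 (38%) held 293T alone, 1112 (31.5%) K562 alone and 817 (23.1%) LNCap alone, against 31.9%, 29.6% and 30.5% on the rest of the autosomes. K562 and LNCap together held 189 (5.35%), 293T and K562 30 (0.849%), and 293T and LNCap 25 (0.708%). On the rest of the autosomes these shares were 5.72%, 0.860% and 0.970%. All 3 lists held 17 regions (0.481%, 0.301 to 0.769), near the 0.423% of the merged regions of all chromosomes. Of the 17, 9 lay on chromosome 10, 4 on chromosome 17, 2 on chromosome 2 and 1 each on chromosomes 3 and 4, so that 8 remained without chromosome 10 and 4 without chromosomes 10 and 17.

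The 10 regions of the 3 lists with the highest summed score, taking each list's highest activity score in the region, were mostly on chromosomes 10 and 17. The score is the authors' own measure of silencing, for which no list goes below 2. Its scale is unknown, so the sum serves only to order the regions, and scores of different lists are given side by side without comparison. The strongest region, from 38521251 to 38521401 on chromosome 10, held scores of 4.6 for 293T, 4.1 for K562 and 2.2 for LNCap. The region from 38824351 to 38825233 on the same chromosome reached 2.9, 3.4 and 3.7, and that from 95982851 to 95983151 on chromosome 2 reached 3.5, 2.6 and 3.2. In the first of these regions the silencers of 293T (38521351 to 38521401) and K562 (38521251 to 38521301) do not overlap each other, and the LNCap silencer spans both.

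Further shared regions of chromosome 10 were 38493050 to 38494150 (2.8 in 293T, 3.4 in K562, 3.0 in LNCap) and 38432051 to 38432251 (3.4, 2.4 and 3.2). Another pair there was 38486200 to 38486500 (3.0, 2.2 and 3.1) and 38507701 to 38508551 (2.7, 2.3 and 3.1). On chromosome 17 they were 26786150 to 26787201 (2.9, 2.5 and 3.7) and 27089283 to 27089401 (2.5, 3.3 and 3.1). In several of these the silencers of the lists cover different stretches of the region: the last region joins stretches of 50 bp from each line. Chromosome 4 held the region from 49091213 to 49091551 (2.5, 2.8 and 3.3). The other 7 regions had summed scores between 7.1 and 8.

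Of the 5 highest finite scores per list, those of 293T had no counterpart in another line, 1 of those of K562 had one, and 3 of those of LNCap had one. Among all silencers of the windows, 5.07% of 293T, 16.3% of K562 and 21.3% of LNCap overlapped either other list. On the rest of the autosomes the shares were 6.10%, 17.9% and 17.7%. With 5 silencers per list, no difference from these shares can be read. The 5 highest finite scores of 293T were 7.3 on chromosome 2 (94704901 to 94704951), 5.8 on chromosome 5 (51353996 to 51354046), 5.6 and 5.4 on chromosome 11 (54982449 to 54982600 and 55115901 to 55115951) and 5.5 on chromosome 12 (37765661 to 37765711). In K562 the highest were 5.8 on chromosome 3 (90051001 to 90051100), 5.7 on chromosome 11 (55526131 to 55526200), 5.6 on chromosome 6 (60636626 to 60636676) and 5.1 on both chromosome 2 (94784509 to 94784559) and chromosome 10 (38520651 to 38520851). In LNCap they were 7.2 on chromosome 17 (26815983 to 26816033), 5.9, 5.3 and 5.1 on chromosome 10 (38520750 to 38520801, 38576850 to 38577100 and 38489700 to 38489751) and 5.2 on chromosome 3 (90214437 to 90214550). The K562 silencer and the 3 LNCap silencers on chromosome 10 overlapped another list, and those near 38520750, with 5.1 in K562 and 5.9 in LNCap, overlapped each other.

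An infinite score was deposited for 31 silencers of K562, and 4 of these (12.9%, 5.13 to 28.9) lay in the windows, which hold 1.02% of the whole list. This was 0.293% of the K562 silencers in the windows (0.114 to 0.751), against 0.0205% on the rest of the autosomes (0.01396 to 0.02997). The 4 silencers were on chromosome 2 (95978701 to 95978751), chromosome 3 (93838401 to 93838451), chromosome 11 (55293726 to 55293776) and chromosome 20 (25901033 to 25901083), each 50 bp wide and free of overlap with another list. None of the 2 infinite scores of 293T and none of the 13 of LNCap lay in the windows.

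Scores of at least 3 were more frequent in the windows. Of the 293T silencers in the windows, 17.96% (16.05 to 20.04) reached 3, against 14.1% on the rest of the autosomes and 14.2% of the whole list. In K562 the share was 12.6% (10.9 to 14.5), against 9.84% elsewhere and 9.85% over the list. In LNCap it was 16.6% (14.5 to 18.9), against 11.6% elsewhere and 11.6% over the list. The ratios of windows to the rest were 1.27 (1.14 to 1.42), 1.28 (1.11 to 1.47) and 1.43 (1.25 to 1.64). Median scores differed by at most 0.1 on the authors' scale, at 2.35, 2.3 and 2.3 in the windows and 2.3, 2.2 and 2.2 elsewhere. Without chromosomes 10 and 17 the shares were 15.7% (13.7 to 17.8), 11.3% (9.52 to 13.3) and 13.4% (11.3 to 15.8). Each of these intervals then includes the share of the rest of the autosomes.

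Silencers in the windows were also wider. In the windows the median width was 51 bp for K562 and 50 bp for the other lists, against 50 bp elsewhere in each list. Wider than 50 bp were 41.1% of 293T silencers in the windows (38.5 to 43.6), against 35.4% elsewhere and 35.5% over the list. The K562 shares were 50.4% (47.8 to 53.1), against 41.2% elsewhere and 41.3% over the list, and the LNCap shares 44.3% (41.3 to 47.2), against 39.3% elsewhere and 39.4% over the list. Without chromosomes 10 and 17 the shares were 40.1%, 48.1% and 42.6%. At more than 150 bp the ratio of windows to the rest was 1.46 (1.28 to 1.68) for 293T, 1.68 (1.51 to 1.88) for K562 and 1.13 (0.968 to 1.33) for LNCap.

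The register of the deposited starts differed as well. Of the K562 silencers, 46.5% in the windows and 43.3% elsewhere started 1 base past a multiple of 50, and a smaller set started at the multiple itself. In the windows 22.1% of K562 silencers (20.003 to 24.4) started at a multiple of 50, against 6.15% elsewhere and 6.31% over the list, a ratio of 3.60 (3.25 to 3.98) with a higher share than on the remainder of the chromosome in 17 of 17 windows. In LNCap the share was 10.3% (8.61 to 12.2), against 3.19% elsewhere and 3.24% over the list, a ratio of 3.22 (2.69 to 3.85), higher in 16 of 17 windows. In 293T it was 8.10% (6.79 to 9.63), against 4.63% elsewhere and 4.70% over the list, a ratio of 1.75 (1.47 to 2.09), higher in 14 of 17. The excess persisted without chromosomes 10 and 17, at 20.02% in K562, 8.498% in LNCap and 7.51% in 293T.

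Silencers with such starts were wide wherever they lay. Of the 302 K562 silencers of this kind in the windows, 89.7% were wider than 50 bp, against 39.2% of the 1063 others in the windows. On the rest of the autosomes the same shares were 89.3% and 38.03%. Among silencers with other starts, the share wider than 50 bp was 36.4% in the windows against 32.96% elsewhere in 293T, and 38.8% against 37.8% in LNCap. What sets the register in the authors' calling is not given in the sources used here.

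**Figure D4:**
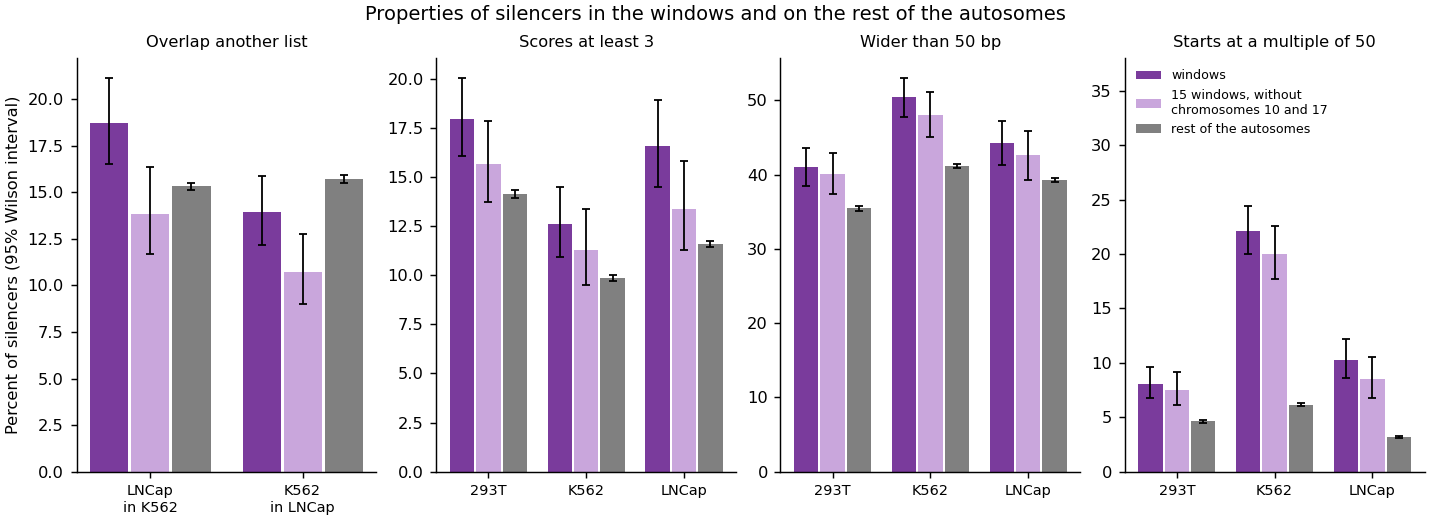
Percent of silencers (y axis, 95% Wilson intervals) that overlap another list, score at least 3, are wider than 50 bp or start at a multiple of 50, in all 17 windows (dark), in the windows without chromosomes 10 and 17 (light) and on the rest of the autosomes (gray). The excess in overlap of LNCap with K562 (18.7%) is absent without chromosomes 10 and 17 (13.9%), whereas the excess of starts at a multiple of 50 remains in each line.

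The 10 fullest of the 736 bins held 15.4% of all 3865, at 9.65% of the 293T silencers (8.22 to 11.3), 19.6% of K562 (17.5 to 21.7) and 17.9% of LNCap (15.7 to 20.3). These bins were picked by the same counts, and no matching share for the rest of the autosomes is given. Without chromosomes 10 and 17 the 10 fullest bins held 8.498%, 10.7% and 10.7%. The fullest of all, on chromosome 17 at 26.8 to 26.9 Mb, held 16 silencers of 293T, 67 of K562 and 45 of LNCap and ranked 2 among all autosomal bins. The next, on chromosome 10 at 38.5 to 38.6 Mb, held 15, 57 and 31 and ranked 3. In both bins K562 supplied the most silencers and 293T the fewest.

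Other full bins of chromosome 10, with silencers of 293T, K562 and LNCap in that order, lay at 38.8 to 38.9 Mb (15, 22 and 32), at 38.4 to 38.5 Mb (9, 17 and 22), at 38.7 to 38.8 Mb (11, 22 and 9) and at 38 to 38.1 Mb (16, 10 and 3). The second bin of chromosome 17, at 26.7 to 26.8 Mb, held 22, 24 and 14. Outside these chromosomes the fullest bins were on chromosome 4 at 49.1 to 49.2 Mb (14, 16 and 14), on chromosome 16 at 36.1 to 36.2 Mb (9, 19 and 10) and on chromosome 2 at 95.9 to 96 Mb (10, 13 and 13). The bins of chromosomes 4 and 2 hold the lists almost evenly.

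Within the fullest bins the silencers formed dense blocks, defined here as runs of at least 20 silencers of any list with neighbours at most 5 kb apart. The windows held 5 such blocks, or 6.79 per 100 Mb, against 205 on the rest of the autosomes, or 7.32 per 100 Mb. Per length, empty stretches included, blocks were thus no more frequent in the windows, a comparison that rests on 5 blocks. Counted by silencers, the blocks held 402 of the 3865 in the windows, against 5514 of 375468 on the rest of the autosomes. By size, 3 of the 5 ranked 3, 4 and 5 among all autosomal blocks. On chromosome 17 a block from 26783101 to 26842075 held 24 silencers of 293T, 50 of K562 and 39 of LNCap, and one from 26847581 to 26878879 held 6, 34 and 18. On chromosome 10 blocks ran from 38481901 to 38527901 (19, 49 and 39), from 38784051 to 38836951 (20, 34 and 36) and from 38574151 to 38591436 (2, 21 and 11).

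**Figure D5:**
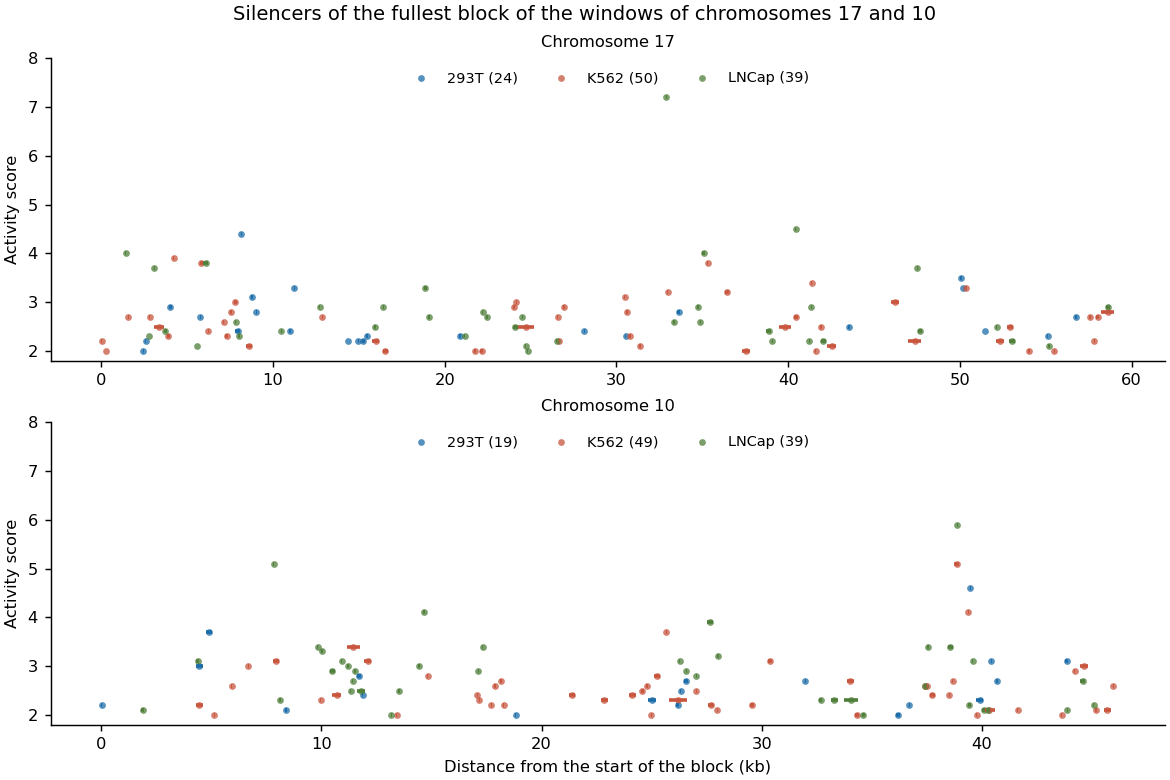
Activity score (y axis, the authors' score) of each silencer in the largest block of the windows on chromosome 17 (top) and on chromosome 10 (bottom), by distance from the start of the block in kb (x axis); dots mark silencers and bars their width, with the number per line in the legend. Silencers of the 3 lines are interspersed through both blocks, and their median scores over the 3 lists are 2.5 on chromosome 17 and 2.6 on chromosome 10.

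Silencers of the windows counted as lying in dense blocks overlapped other lists far more often than the remaining silencers of the windows. This counted set is larger than the 5 blocks above. In each list it holds more silencers than the counts given for those blocks add up to. Where the extra silencers lie was not traced, so the shares below describe the set and not exactly the 5 blocks. Of the LNCap silencers in this set, 71 (47.7%, 39.8 to 55.6) overlapped K562. The share was 14.1% (11.98 to 16.5) of the 931 others of the windows and 15.3% on the rest of the autosomes. Of 196 K562 silencers there, 33.2% (26.95 to 40.02) overlapped LNCap, against 10.7% (9.05 to 12.6) and 15.7%. Of 78 silencers of 293T there, 23.1% (15.1 to 33.6) overlapped K562, against 1.94% and 3.30%. Blocks are picked for silencers of any list that lie close together, so more overlap than outside them is partly built into that choice. No such shares are given for the blocks on the rest of the autosomes, so the contrast cannot be read as particular to the windows. The block of chromosome 10 from 38481901 had 2.33 silencers per kb, the densest of the 5, and the part of this density in the overlaps was not tested.

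The high scores gathered in the same counted set too. A score of at least 3 was held by 28.2% of 293T silencers in the set (19.4 to 39.03). The share was 17.4% in the windows outside the set and 14.1% elsewhere. For K562 the shares were 21.4% (16.3 to 27.7), 11.1% and 9.84%, and for LNCap 32.9% (25.9 to 40.8), 13.96% and 11.6%. Outside the set, the interval of the 293T share in the windows (15.4 to 19.5) still lay above the rest of the autosomes. So did that of the LNCap share (11.9 to 16.3), whereas that of K562 (9.44 to 13.1) included the rest of the autosomes.

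At the other extreme, some silencers of the windows stood alone. No other silencer of any list lay within 100 kb of 15 of the 1420 silencers of 293T (1.06%), 20 of the 1365 of K562 (1.47%) and 3 of the 1080 of LNCap (0.278%). On the whole rest of the autosomes the counts were 9 of 117760 (0.00764%), 14 of 127124 (0.0110%) and 5 of 130584 (0.00383%). Median scores of these lone silencers were 2.8 in 293T and 2.2 in K562 and LNCap. Of the 20 in K562, 9 started at a multiple of 50.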

How the data were processed

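Each deposited line gives a chromosome, a start, an end and an activity score, per the file headers. The scale of this score is unknown, so shares and medians were compared within lists, and scores were summed or pooled over lists only to order the shared regions and to describe the blocks. Bowtie2, SAMtools and hg38 are named per the submitters' processing notes. Not given in the sources used here are the caller, its thresholds, the pooling of libraries and whether starts count from 0 or 1. Positions are printed as deposited.

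Lines with broken fields, an unknown chromosome or a width over 5000 bp were left out (58 for 293T, 12 for K562, 25 for LNCap). A chromosome's length was its highest end in any list. Densities carry exact Poisson intervals, shares Wilson intervals, density ratios exact conditional intervals and ratios of shares log-normal intervals. The density ratio and the ratio of overlapping shares were tested on simulated lists of randomly placed silencers, all 50 bp wide. The other measures were not simulated. No test across samples was possible with 1 list per line.

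The windows, the measures and the naming rule were chosen with earlier results of these data known. The rule names each window, the 10 fullest bins, the 5 longest empty stretches, the 5 highest finite scores per list, every infinite score and the 10 strongest regions of all 3 lists. The start register, the blocks, the lone silencers, the sides of the windows and the values without chromosomes 10 and 17 were added after seeing the data. Genes and sequences were not used here, since no genome of this build was given. Intervals came from scipy 1.17.1, tables from pandas 2.3.3 and numpy 2.4.6, and plots from matplotlib 3.10.9, under Python 3.11.15.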

Additional observations from a re-analysis of the deposited data

How the results depend on the processing

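Of 548 recomputed values, 488 stayed within the interval of the reported value and 1 reversed. Most of the 548 leave out a single window in turn, which removes a small part of the data. The count therefore says little about the other settings. Read depth and mappability behind the lists are unknown, and every interval covers counting error alone. The cause of the changes below was not tested, except that shortened windows lose their fuller edges and occupied bins leave out empty length. The ratio of density in the windows to the rest of the autosomes, in 293T, K562 and LNCap in that order throughout, was 0.359, 0.343 and 0.242 in windows shortened by 0.5 Mb at both ends, 0.810, 0.722 and 0.556 over occupied bins, and 0.526, 0.449 and 0.358 above the median score. For K562 it was 0.385 after merging silencers within 500 bp, and without chromosomes 10 and 17 it was 0.356 in K562 and 0.282 in LNCap. Against the flanks the ratio was 0.718, 0.650 and 0.529 over occupied bins, and 0.364 in K562 without chromosomes 10 and 17.

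The reversed value was the overlap of LNCap with K562 without chromosomes 10 and 17. It stood at 0.904 times the rest, with an interval (0.765 to 1.07) that includes 1. The ratio of overlaps without those chromosomes was 0.550 for 293T in K562, 0.552 for 293T in LNCap and 0.683 for K562 in LNCap. For K562 in 293T it was 0.692, with an interval (0.457 to 1.05) that includes 1. With a reciprocal overlap of 50% it was 0.645 for 293T in K562 and 0.724 for K562 in 293T. With silencers of 50 bp only it was 0.652 for 293T in K562, 0.715 for K562 in 293T and 0.738 for K562 in LNCap. Regions held by all 3 lists numbered 44 (1.56%) with silencers widened by 250 bp and 4 (0.136%) without chromosomes 10 and 17. Leaving these chromosomes out, a choice made after seeing the data, also gave scaled shares of 40.7% for 293T and 33.05% for K562, score ratios of 1.11 for 293T and 1.16 for LNCap, and a start ratio of 2.66 for LNCap. It left 10.7% of K562 and 10.7% of LNCap silencers in the 10 fullest bins, against 13.7% and 12.3% after merging within 500 bp. For scores of at least 4 the ratio was 1.48 in K562 and 1.75 in LNCap, and for widths over 150 bp it was 1.46 in 293T and 1.68 in K562.

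With each window left out in turn, the ratio of density to the rest of the autosomes ran from 0.434 to 0.484 in 293T, from 0.368 to 0.425 in K562 and from 0.287 to 0.328 in LNCap. Against the flanks it ran from 0.412 to 0.461, from 0.358 to 0.411 and from 0.295 to 0.341. The ratio of overlaps ran from 0.707 to 1.05 for 293T in K562, from 0.586 to 0.834 for 293T in LNCap, from 0.850 to 1.14 for K562 in 293T, from 0.762 to 0.919 for K562 in LNCap, from 0.930 to 1.22 for LNCap in 293T and from 1.03 to 1.27 for LNCap in K562. Regions held by all 3 lists numbered 8 to 17 (0.254% to 0.530%). Scaled shares were 37.9% to 39.8%, 33.8% to 35.2% and 26.4% to 27.1%. Score ratios were 1.13 to 1.32, 1.22 to 1.34 and 1.24 to 1.53, width ratios 1.14 to 1.20, 1.19 to 1.25 and 1.09 to 1.16, and start ratios 1.58 to 1.81, 3.098 to 3.78 and 2.61 to 3.38.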
